A study of Arabidopsis thaliana with 6 samples.

Results

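The genes described here encode cytosolic proteins of the large (60S) ribosomal subunit of Arabidopsis thaliana, from protein L3 to protein L24, with their paralogues. Of 60 such genes listed by locus, 37 had a probe set that the platform annotation lists with that gene alone, out of 13286 genes with such a probe set in the whole series. The 37 genes cover 16 of 24 protein families, and each had 1 probe set. In families L3, L5, L8, L10, L11, L23, L23a and L24 no gene of the list had such a probe set. A further L8 gene, AT3G51190, was not on the list and is counted with the other large-subunit genes below. Family L21 was not on the list either. Of the 23 genes left out, 4 lie in probe sets that name 2 genes together, and 19 were not named by any probe set in the annotation used.

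Transcript levels were measured in whole seedlings with Affymetrix ATH1 arrays. The mutant seedlings carried the atr8 mutation, in the gene of the long non-coding RNA AtR8, and the controls were wild type. Both were in the Wassilevskija (WS) accession and 10 days old. All had been dipped for 6 h in water purged of air, a low-oxygen stress, and had then recovered on agar medium for 22 h. Each genotype had 3 biological replicates, 1 array each. Unstressed seedlings were not analysed here, so all differences below are between genotypes after stress and recovery. The design text speaks of mutant lines in the plural, and the labels do not say which line an array came from. The annotation used names no probe set for AtR8, so the mutation itself was not checked here.

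A cytosolic ribosome joins a small subunit, which reads the mRNA, to a large subunit, which makes the peptide bond and holds the exit tunnel for the growing protein. Each protein of the plant ribosome is encoded by a small family of paralogues, several of them usually active in the same tissue. Their mRNAs are among the most abundant of a growing cell, and demand for them is highest in dividing and expanding tissue. The family of each locus is given from the general naming of plant ribosomal proteins, since the annotation used gives a symbol other than the locus for only 1 of the 37 genes, PGY1 (AT2G27530).

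Most large-subunit genes stood slightly higher in the mutant, and none of them passed the test. Of the 37 genes, 27 had an estimate above 0 and 10 below, where the estimate is the difference in log2(intensity + 16), mutant minus wild type. The median estimate was 0.17, that is 1.13-fold, against −0.01 over all 22746 probe sets tested, of which 49.5% had an estimate above 0. By limma with Benjamini-Hochberg adjustment over all probe sets, 0 of 37 genes differed at an adjusted p under 0.05, and 0 at an unadjusted p under 0.05. The background in this comparison was 0.919% of probe sets called, 0.712% higher and 0.207% lower. An unadjusted p under 0.05 was found for 3190 of all 22746 probe sets. Among the 3288 probe sets with a mean intensity of 1000 or more, it was found for 678, so the 37 genes lay below both backgrounds. The smallest adjusted p among the 37 genes was 0.384.

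The groups were nevertheless apart for about every other gene. In 18 of the 37 genes all 3 mutant arrays lay above all 3 wild-type arrays, that is 48.6%, against 11.2% of all probe sets. The opposite order was found in 2 genes, 5.41%, against 11.0% of all probe sets. Ribosomal protein genes are bright on these arrays, and 34 of the 37 had a mean intensity of 1000 or more. Of these 34 genes 25 had an estimate above 0, against 49.7% of all 3288 probe sets with a mean of 1000 or more. Of those 3288, 1.76% were called higher and 0.213% lower. The 34 genes are brighter still, with a median intensity of 11195 against 1999. Among the 3288 probe sets, 21.1% had every mutant array above and 21.2% every mutant array below the wild type. These are counts without a test over the list, and paralogues of similar sequence can share labelled cRNA.

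**Figure D1:**
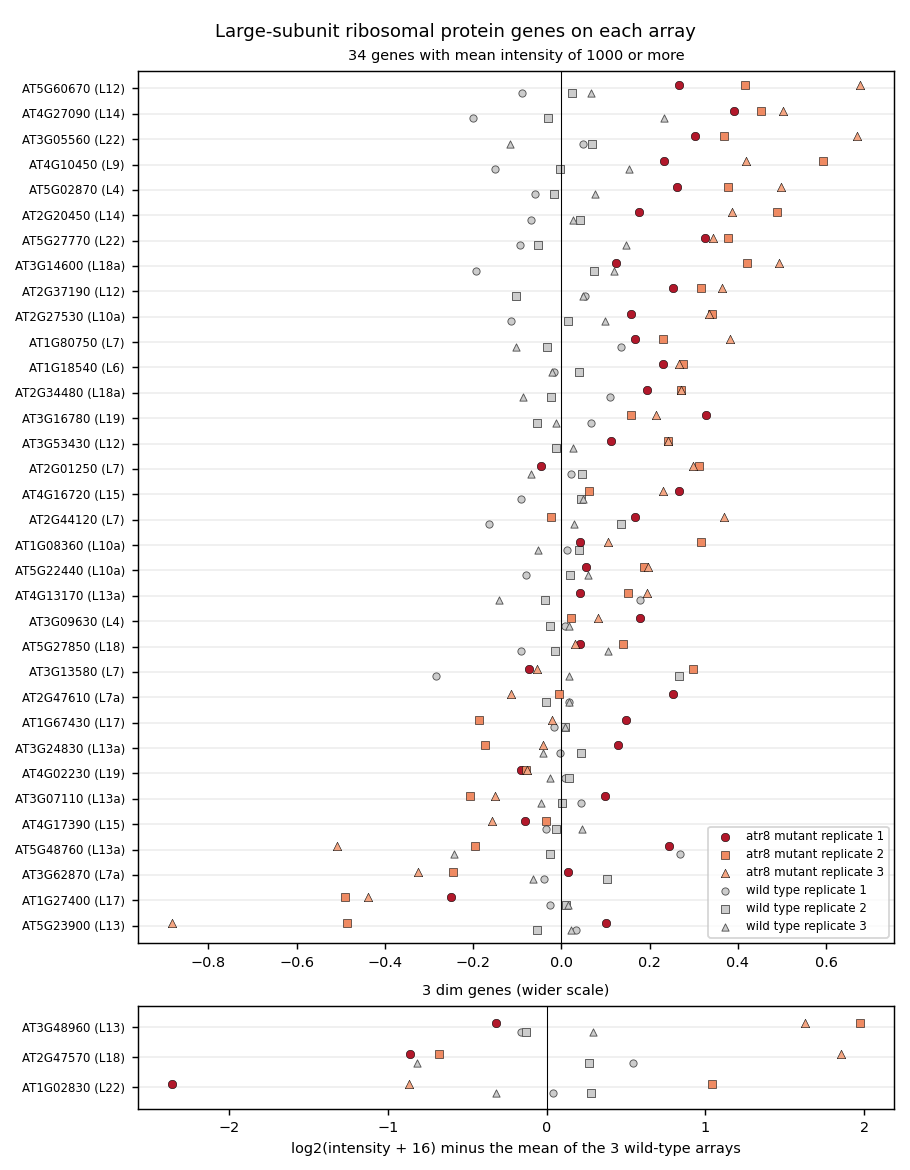
Each row is a gene with its protein family in brackets, and each point is 1 array, as log2(intensity + 16) minus the mean of the 3 wild-type arrays (filled colours: atr8 mutant, grey: wild type; circle, square and triangle are replicates 1, 2 and 3). In the upper panel 18 of 34 genes have all mutant points right of all wild-type points and 2 have them all left; the 3 dim genes below scatter widely in both genotypes.

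The shift was present on each mutant array. The median over the 37 genes was 0.15, 0.23 and 0.23 above the wild-type mean on mutant replicates 1, 2 and 3. Each wild-type array, set against the mean of the other 2, gave −0.02, 0.01 and 0.03 for replicates 1, 2 and 3. On every mutant array 24 of the 37 genes lay above all wild-type arrays, against 27.1%, 31.5% and 30.9% of all probe sets on mutant replicates 1, 2 and 3. Their summed intensity was 377348, 374680 and 385041 in the mutant, against 337725, 346667 and 345984 in the wild type, and the groups did not overlap. Tissue was whole seedlings, so a larger share of cells rich in ribosomes and more of this mRNA in each cell cannot be told apart.

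Mutant replicates 2 and 3 stood apart in controls for RNA quality, and the results include them unless said otherwise. For the actin control, signal from the 3′ end over that from the 5′ end came to 2.13, 28.9 and 19.6 in mutant replicates 1, 2 and 3; the wild-type arrays gave 2.55, 2.66 and 2.17. The same ratio for the GAPDH control came to 0.996, 1.75 and 1.70 in the mutant, against 0.815, 0.794 and 0.844 in the wild type, so replicate 1 too lay above every wild-type array in this control. On mutant replicate 1 alone the median was 0.15 and 29 of 37 genes lay above the wild-type mean. The part of RNA quality in the ribosomal result was not tested. In 7 genes replicate 1 lay above the wild-type mean while replicates 2 and 3 lay below it, a pattern found in 10.7% of all probe sets. These 7 genes were 3 of family L13a, both of family L7a, and 1 each of L13 and L17.

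In median log2 difference, shoot markers (−0.99) and root markers (−0.64) stood further apart between genotypes than the 37 ribosomal genes (0.17). Of 12 shoot markers, mostly of photosynthesis, 5 were measured, and their summed intensity was 38376 to 46342 in the mutant, against 76149 to 77312 in the wild type. Of 12 root markers 3 were measured, with sums of 1752 to 2816 in the mutant and 3185 to 3469 in the wild type. The root median was −0.25 on mutant replicate 1 alone and −0.89 over replicates 2 and 3, the arrays with high actin ratios. For the shoot markers it was −0.83 and −1.05. Of 17 markers of dividing cells 3 were measured, AUR1, AUR2 and MCM7, with overlapping sums of 1110 to 1463 in the mutant and 1313 to 1490 in the wild type. No measured marker was at 0. The part of these shifts in the ribosomal result was not tested.

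The proteins L4 and L17 reach into the peptide exit tunnel and line its narrowest stretch. The L4 gene AT5G02870 read 15087, 16339 and 17757 in mutant replicates 1, 2 and 3, against 12066, 12434 and 13262 in the wild type. Every mutant array was brighter than every wild-type array (log2 difference 0.38 ± 0.18, SE, n = 3 arrays per genotype, limma adjusted p = 0.415). Its paralogue AT3G09630 read 12559, 11269 and 11748 in the mutant, against 11163, 10900 and 11232 in the wild type. These arrays were also apart, but mutant replicate 2 cleared the highest wild-type array only narrowly, and the estimate was 0.09 ± 0.17.

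AT1G27400, an L17 gene, was 1 of the 2 genes with every mutant array below the wild type. It read 10795, 9147 and 9483 in the mutant, against 12620, 12952 and 12987 in the wild type. The gap to the lowest wild-type array was wide, with a log2 difference of −0.39 ± 0.18 and an adjusted p of 0.396. The other L17 gene, AT1G67430, is the second brightest of the 37, with 24085, 19105 and 21442 in the mutant, against 21506, 21876 and 21876 in the wild type. Its mutant arrays lay on both sides of a tight wild type, and the estimate was −0.02 ± 0.19.

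L10a forms the mobile stalk near the site where spent tRNA leaves. PGY1 (AT2G27530), an L10a gene known for its part in leaf polarity, read 9513, 10810 and 10756 in the mutant, against 7873, 8618 and 9139 in the wild type. All mutant arrays were higher, with an estimate of 0.28 ± 0.18. AT1G08360 was also apart, at 0.15 ± 0.18, whereas AT5G22440 had mutant replicate 1 just inside the wild-type range, at 0.15 ± 0.18. The 3 paralogues thus all had estimates above 0 within a span of 0.13 on the log2 scale.

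L12 sits at the base of the acidic stalk that recruits translation factors, and all 3 genes of its family were measured. AT5G60670 had the largest estimate of the bright genes. It read 6517, 7234 and 8669 in the mutant, against 5090, 5504 and 5675 in the wild type, which is 1.37-fold (0.45 ± 0.20, adjusted p = 0.384). AT2G37190 read 11748, 12284 and 12700 in the mutant, against 10232, 9185 and 10200 in the wild type, and AT3G53430 read 13476, 14745 and 14745 in the mutant, against 12360, 12360 and 12700 in the wild type. In all 3 genes every mutant array was above every wild-type array, with estimates of 0.31 ± 0.18 for AT2G37190 and 0.20 ± 0.17 for AT3G53430.

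L19 takes part in bridges to the small subunit, and its measured paralogues had estimates of opposite sign, neither past the test. AT3G16780 read 4903, 4355 and 4531 in the mutant, against 4088, 3760 and 3874 in the wild type, all mutant arrays higher (0.23 ± 0.18, limma adjusted p = 0.597). AT4G02230 read 6418, 6472 and 6484 in the mutant, against 6883, 6918 and 6723 in the wild type, all mutant arrays lower. That estimate was small, −0.08 ± 0.17, with a limma adjusted p of 0.861 and a 95% interval from −0.50 to 0.33.

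L14 and L6 are structural proteins that bind the ribosomal RNA of the large subunit. The L14 gene AT4G27090 read 17540, 18298 and 18934 in the mutant, against 11628, 13076 and 15693 in the wild type. Each mutant array was brighter than the brightest wild-type array, although the wild type itself was spread (0.45 ± 0.20, adjusted p = 0.387). AT2G20450, also L14, read 4261, 5291 and 4929 in the mutant, against 3591, 3881 and 3838 in the wild type, again all higher (0.35 ± 0.19). The L6 gene AT1G18540 was very even within each genotype, with 9745, 10060 and 9994 in the mutant, against 8215, 8540 and 8183 in the wild type (0.26 ± 0.17).

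L22 is a ribosomal RNA-binding protein that yeast can live without. AT3G05560, the third brightest gene here, read 20287, 21220 and 26164 in the mutant, against 16998, 17241 and 15168 in the wild type (0.45 ± 0.20, adjusted p = 0.387). AT5G27770 read 9126, 9472 and 9248 in the mutant, against 6824, 7026 and 8064 in the wild type (0.35 ± 0.18). Both L22 genes had every mutant array above the wild type. The third L22 gene, AT1G02830, was dim and erratic, with 5.21, 207.7 and 43.7 in the mutant, against 95.7, 115.7 and 71.4 in the wild type.

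L18a and L9 are further structural proteins of the subunit, with 2 genes measured for L18a and 1 for L9. The L18a gene AT2G34480 is the brightest of all 37, with 23615, 24914 and 24914 in the mutant, against 22286, 20287 and 19434 in the wild type. AT3G14600, its paralogue, read 4638, 5698 and 5991 in the mutant, against 3716, 4481 and 4623 in the wild type. In both genes the mutant arrays lay above, narrowly for AT3G14600 in replicate 1, with estimates of 0.25 ± 0.18 for AT2G34480 and 0.35 ± 0.21 for AT3G14600. The L9 gene AT4G10450 read 3908, 5020 and 4446 in the mutant, against 2993, 3318 and 3700 in the wild type, all mutant arrays higher (0.41 ± 0.20, adjusted p = 0.425).

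Among the remaining families, also of structural rRNA-binding proteins, the groups mostly overlapped. All 4 genes of L7 had estimates above 0, from 0.06 to 0.26, but only AT1G80750 was apart, with 1936, 2025 and 2250 in the mutant, against 1893, 1685 and 1604 in the wild type. In family L15, AT4G16720 was apart at 0.19 ± 0.18, while AT4G17390 overlapped at −0.09 ± 0.17. The 2 genes of L18 overlapped, and AT2G47570 among them was dim, with 8.53, 11.8 and 144.6 in the mutant, against 48.9, 37.5 and 9.25 in the wild type.

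L13a is known in human cells for a further role in control of translation. Families L13a, L7a and L13 held 6 of the 7 genes whose mutant replicate 1 lay above and replicates 2 and 3 below the wild-type mean. The 4 L13a genes had estimates from −0.15 to 0.13 and the 2 L7a genes −0.18 and 0.04, all with overlapping arrays. The L13 gene AT5G23900 read 6723, 4470 and 3391 in mutant replicates 1, 2 and 3, against 6413, 6027 and 6360 in the wild type. Replicate 1 was thus above all wild-type arrays, and replicates 2 and 3, the arrays with high actin ratios, were far below (−0.42 ± 0.29). AT3G48960, the other measured L13 gene, had the largest estimate of all 37, 1.09 ± 0.62, but its intensities were only 6.57, 94.7 and 70.9 in the mutant, against 9.18, 9.82 and 18.5 in the wild type, and replicate 1 was below all of these.

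The interval of each gene, taken singly, shows how large a difference the modelled spread allows. It takes no account of RNA quality. For 33 of the 37 genes the 95% interval of the log2 difference lay inside a 2-fold change in either direction. The other 4 were the 3 dim genes and AT5G23900, whose interval ran from −1.13 to 0.29. The SE in these intervals draws on the spread of all probe sets, with a median within-genotype SD of 0.42 on the log2 scale, against 0.12 among the 37 genes. At a mean intensity of 1000 or more, this SD was 0.18 over all probe sets and 0.11 among the 34 bright genes. With a spread that may vary with brightness (limma's intensity trend with a robust prior), 4 genes were higher and 1 lower at an adjusted p under 0.05. These were AT3G05560 (0.00783), AT4G27090 (0.0102), AT5G02870 (0.024) and AT5G60670 (0.0281), and, lower, AT1G27400 (0.0247). The same setting called 6.41% of all probe sets, 3.57% higher and 2.84% lower, and 10.1% and 10.5% of those with a mean intensity of 1000 or more. Among the 34 bright ribosomal genes, 11.8% were called higher and 1 gene was called lower. Their median intensity of 11195 was far above the 1999 of all probe sets of 1000 or more. That background was thus not matched for brightness.

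**Figure D2:**
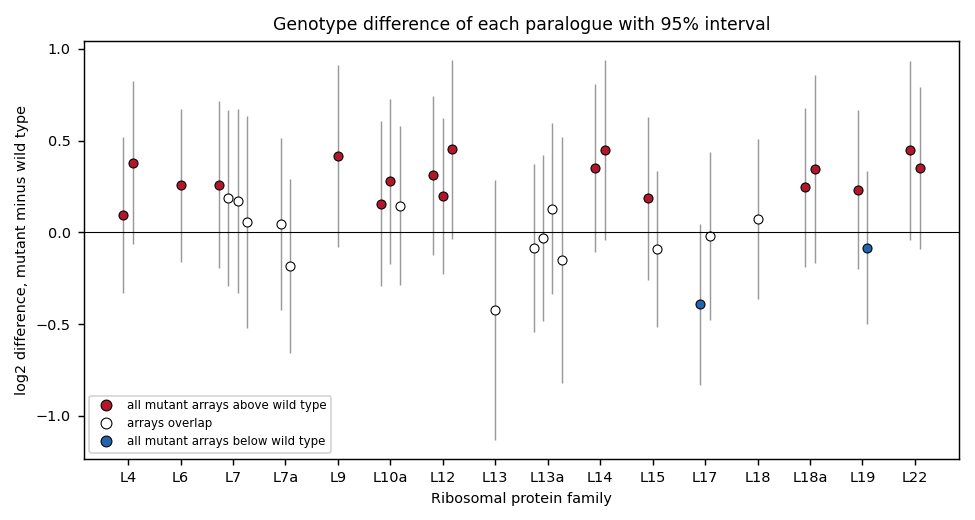
Each point is 1 of the 34 bright genes, grouped by protein family, with its log2 difference (mutant minus wild type) on the vertical axis and the 95% limma interval as a bar. Red points have all mutant arrays above the wild type (18 genes), blue points all below (2 genes), and white points overlap; every interval includes 0.

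Within families, paralogues were compared directly through the ratio of their intensities on each array. There are 30 pairs in 14 families. In 7 of these families all estimates were above 0, in 1 family (L17) all were below, and in 6 they were mixed. The ratio separated the genotypes in 8 of 30 pairs, each of bright genes. Single probe sets with a mean intensity of 1000 or more already separated in 21.1% of cases with the mutant above and 21.2% with it below. With 3 arrays per genotype the exact two-sided permutation test cannot go below 0.1, which all 8 pairs reached, and adjusted over the 30 pairs their p was 0.375.

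In every pair the gene with the larger estimate is put on top of the ratio, so each gap is positive by construction. The widest of these separations was in L17. The log2 ratio of AT1G67430 to AT1G27400 was 1.16, 1.06 and 1.18 in the mutant, against 0.77, 0.76 and 0.75 in the wild type. The gap between genotypes was 0.37 ± 0.04 (SE from the 6 ratios), with an adjusted p of 0.375 by the exact permutation test. This pair was picked as the widest, and a ratio does not tell which gene moved. In L19 the ratio of AT3G16780 to AT4G02230 differed by 0.32 ± 0.07, and in L4 that of AT5G02870 to AT3G09630 by 0.28 ± 0.11. The L15 pair differed by 0.28 ± 0.10 and the L7a pair by 0.23 ± 0.07, although neither L7a gene alone was apart. In L12 the ratio to AT3G53430 differed by 0.25 ± 0.10 for AT5G60670 and by 0.11 ± 0.05 for AT2G37190. In L10a the ratio of PGY1 (AT2G27530) to AT5G22440 differed by 0.13 ± 0.03. Larger gaps of 1.51 in L13 and 1.17 and 1.08 in L22 each involve a dim gene and overlap between genotypes.

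**Figure D3:**
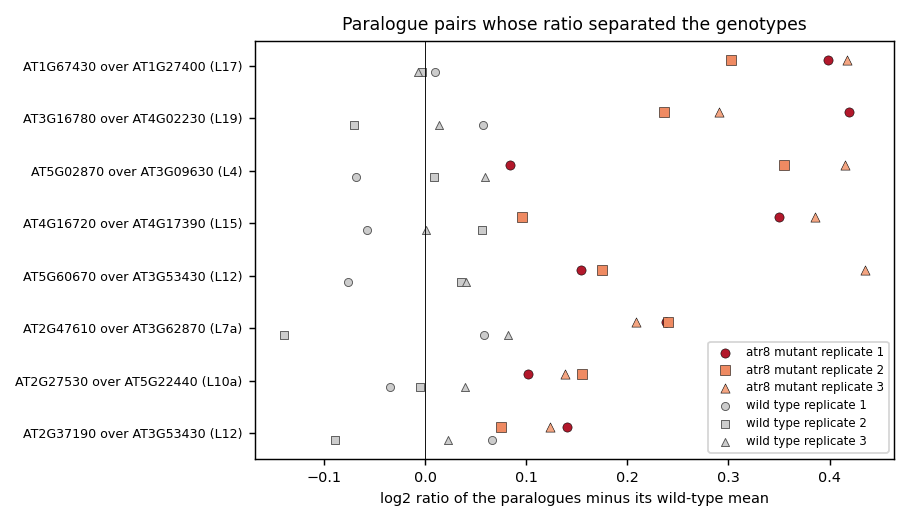
Each row is a pair of paralogues, and each point is the log2 ratio of their intensities + 16 on 1 array minus the mean ratio of the 3 wild-type arrays (colours: atr8 mutant, grey: wild type). The gene with the larger estimate is on top of each ratio, which places the mutant points on the right; the gaps run from 0.37 between means in L17 down to 0.11 in L12.

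Most other measured genes of the cytosolic ribosome also had estimates above 0, and none passed the test. Of 70 further large-subunit genes, L21, L26 to L40, the acidic stalk proteins and paralogues not listed above, 45 were measured. Their median estimate was 0.32, with 36 above 0, 17 with all mutant arrays higher and 0 with all lower, and limma called 0 of them, with 1 at an unadjusted p under 0.05. That is 37.8% apart with the mutant higher, against 11.2% of all probe sets and 21.1% of bright ones. All mutant arrays were lower in 11.0% of all probe sets and 21.2% of bright ones. Over all 22746 probe sets, 0.919% were called and 3190 had an unadjusted p under 0.05. The intensity trend with a robust prior called 7 of the 45 genes higher, 15.6%, against 3.57% of all probe sets and 10.1% of bright ones. On mutant replicate 1 alone their median was 0.13, and over replicates 2 and 3 it was 0.38. AT3G02190, a gene of L39, which also lies in the exit tunnel, read 2283, 3886 and 3527 in the mutant, against 1803, 2035 and 2100 in the wild type. It was the 1 gene with an unadjusted p under 0.05 (0.67 ± 0.26, adjusted p = 0.341). The L29 gene AT3G06700 stood at 0.55 ± 0.23, the L35 gene AT5G02610 at 0.58 ± 0.25 and the L27 gene AT4G15000 at 0.47 ± 0.20, all with every mutant array higher.

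Of 97 small-subunit (40S) genes 48 were measured, with a median of 0.19, 39 above 0, 12 with all mutant arrays higher and 0 with all lower. The 12 genes are 25% of those measured, against 11.2% of all probe sets and 21.1% of bright ones. The order found in 0 of the 48 genes, all mutant arrays lower, was found in 11.0% of all probe sets and 21.2% of bright ones. Here limma called 0 genes, 0 had an unadjusted p under 0.05, and the intensity trend called 1 higher, 2.08%. The trend called 3.57% of all probe sets and 10.1% of bright ones higher. Of all 22746 probe sets 3190 had an unadjusted p under 0.05, and of the 3288 bright ones 678. The 40S genes thus lay below these backgrounds. Their median was 0.11 on mutant replicate 1 alone and 0.23 over replicates 2 and 3. The S24 gene AT3G04920 read 6472, 6723 and 6035 in the mutant, against 4655, 4960 and 5442 in the wild type, and the S20 gene AT3G47370 stood at 0.35 ± 0.19. All mutant arrays were higher in both, while AT4G39200 (S25, 0.51 ± 0.26) and AT3G10610 (S17, 0.46 ± 0.24) overlapped.

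Of 30 genes for factors that assemble ribosomes 10 were measured, with a median of 0.18, 7 above 0, and 0 called by limma with or without the intensity trend, or at an unadjusted p under 0.05. The median was 0.09 on mutant replicate 1 alone and 0.22 over replicates 2 and 3. Over all 22746 probe sets, 3190 had an unadjusted p under 0.05, and the intensity trend called 6.41%. AT5G60990, an RNA helicase gene, stood at 0.46 ± 0.24, AT2G40360, of the BOP1 family, at 0.38 ± 0.26, AT2G40430 at 0.27 ± 0.18 and AT3G23620 at 0.22 ± 0.19. Only AT2G40430 had all mutant arrays higher, 10% of the group, against 11.2% of all probe sets and 21.1% of bright ones. With all mutant arrays lower there were 0 genes, against 11.0% of all probe sets and 21.2% of bright ones. The estimates of the other genes rest on overlapping arrays.

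The plastid ribosome, a separate machine of bacterial type inside the chloroplast, had estimates below 0 in the few genes measured. Of 26 nuclear genes listed for it 4 were measured, and all 4 had every mutant array below every wild-type array, an order found in 11.0% of all probe sets and 21.2% of bright ones, with a median of −0.55. AT3G13120, a gene of protein S10, read 4646, 4618 and 4810 in the mutant, against 7417, 7761 and 6966 in the wild type (−0.65 ± 0.17, adjusted p = 0.194). AT1G64510 (S6) stood at −0.55 ± 0.19, AT2G43030 (L3) at −0.55 ± 0.19 and AT5G65220 (L29) at −0.52 ± 0.19. All 4 had an unadjusted p under 0.05, against 3190 of all 22746 probe sets and 678 of the 3288 bright ones. After adjustment limma called 0 of the 4 genes. With the intensity trend and robust prior all 4 were called lower, at adjusted p from 0.000635 to 0.0114, against 2.84% of all probe sets and 10.5% of bright ones. On mutant replicate 1 alone their median was −0.51.

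**Figure D4:**
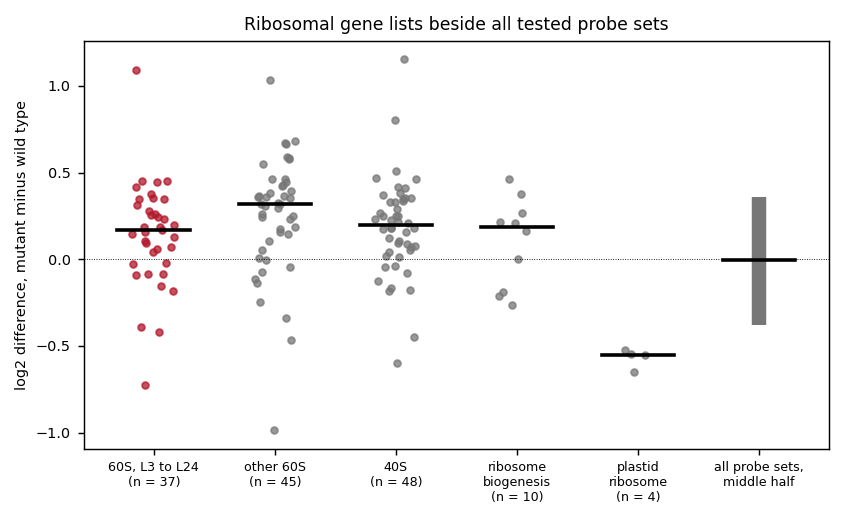
Each point is a gene, with its log2 difference (mutant minus wild type) on the vertical axis, in 5 lists, and the black bars are medians. The last column gives the median and the interquartile range of all 22746 probe sets; the medians are 0.17, 0.32, 0.19, 0.18 and −0.55 for the lists and −0.01 for all probe sets.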

How the data were processed

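The authors' deposited table gives each probe set's intensity on every array, unlogged. All 6 columns hold the same sorted values, so they had been quantile normalized. Labelling of cRNA with biotin is per the labels' protocols. The summarization software is not given in the sources used here, nor is any correction for background, and scanner files were not used here. No depth applies to arrays; their number limits the precision.

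Of 22810 probe sets, 64 controls were left out and 22746 tested. The annotation lists 13513 probe sets with 1 gene, 503 with several and 8730 not at all; 13436 of the first matched a locus in the RefSeq table of TAIR10.1, used only for names. Differences of mutant minus wild type in log2(intensity + 16) were fitted with lmFit and eBayes (limma 3.58.1 under R 4.3.3). Genotype was the sole factor, with Benjamini-Hochberg adjustment over all tested probe sets at a threshold of 0.05. The fit was tested on simulated data. A fold is of the intensity + 16 and understates dim genes. Paralogue ratios were compared by an exact permutation test.

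Genes shown array by array were those whose groups do not overlap, up to the 8 highest and 8 lowest, the 3 brightest, and paralogues that differ most; array values of further loci of the list were added after they were seen. From other lists at most 4 genes with the smallest p were named. The 37 genes, the lists and these rules were chosen with earlier results of these data known. Alternatives were median centring, cyclic loess, removal of the dimmest 30% of probe sets, 1 or 64 in place of 16, an intensity trend with a robust prior, the replicate number as a block, each array left out, and mutant replicate 1 alone. The brightness class of 1000 or more was chosen after seeing the data.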

Additional observations from a re-analysis of the deposited data

Results flagged for a closer look

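Of the probe sets outside the comparison above, some also stood higher in the mutant. The control for 25S ribosomal RNA did not: it was low in mutant replicates 2 and 3, as given further below. The control probe set for 5S ribosomal RNA, itself a part of the large subunit, read 237.8, 535 and 352.1 in mutant replicates 1, 2 and 3, a mean of 375, against 99.0, 100.3 and 76.9 in the wild type. The probe set that the annotation lists with 2 L6 genes, AT1G74060 and AT1G74050, read 7417, 8430 and 8509 in the mutant, a mean of 8119, against 5898, 7399 and 7314 in the wild type. All mutant arrays lay above for 5S ribosomal RNA and for the L6 probe set, narrowly for replicate 1 in the L6 probe set. The limma adjusted p of the L6 probe set was 0.619, and the 5S control was left out of the fit. Groups of 3 arrays are too small for a test of single outlying arrays.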

How the results depend on the processing

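The median over the 37 genes stayed above 0 under each alternative run, at 0.13 to 0.21 with 1 array left out and 0.15 on mutant replicate 1 alone. Of the 37 genes 0 passed under each alternative except the intensity trend with a robust prior, which called 5, and 12 of the genes in the other 4 lists, against 0. Calls over all probe sets, 209, were 99 with 1 added, 336 with 64 added, 371 without the dimmest 30%, 1459 with the trend, 0 on mutant replicate 1 alone and 0 to 314 with 1 array left out, the 314 without mutant replicate 1. The cause of these moves was not tested. The replicate number as a block gave 0 calls over all probe sets and 0 of the 37 genes. The arrays themselves correlated at 0.872 to 0.924. Once the mean of its genotype was taken from each array, same-numbered mutant and wild-type arrays correlated at 0.0141, 0.0115 and 0.00455. Differently numbered ones correlated at −0.0113 to 0.000859. The replicate number thus showed no sign of a strong pairing, although the same-numbered values were the largest. Genes with groups apart numbered 20 to 27 and separated pairs 8 to 12 with 1 array left out, where fewer arrays separate more easily. Each of the 37 genes had 1 probe set without a suffix, so averaging probe sets or dropping suffixed ones changed nothing.

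Of 516 estimates by gene and setting, 20 turned sign, in 12 genes, and none of these had passed. On mutant replicate 1 alone the estimate was −0.32 for AT3G48960, −0.0457 for AT2G01250, −0.86 for AT2G47570, −0.0731 for AT3G13580, 0.15 for AT1G67430, 0.13 for AT3G24830, 0.0982 for AT3G07110, 0.24 for AT5G48760, 0.0149 for AT3G62870 and 0.10 for AT5G23900. With 1 added it was −0.0514 for AT2G47570. With 1 array left out it ran from −0.77 to 0.59 for AT2G47570, −0.0854 to 0.19 for AT3G13580, −0.10 to 0.0631 for AT1G67430, −0.11 to 0.0425 for AT3G24830, −0.35 to 0.0244 for AT5G48760, −0.0600 to 0.12 for AT2G47610 and −1.61 to 0.0876 for AT1G02830. Dim signal limits the 3 genes under 1000 on the intensity scale, whose intervals all pass 2-fold in at least 1 direction.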

Other observations

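The probe set listed with the L9 genes PGY2 (AT1G33140) and AT1G33120, read 13839, 12587 and 13162 in the mutant, against 10900, 12587 and 12457 in the wild type (log2 difference 0.14 ± 0.18, SE). The lowest mutant array and the highest wild-type array read the same. The control probe set for 25S ribosomal RNA read 1105, 143 and 121 in mutant replicates 1, 2 and 3, against 1061, 582.7 and 763.5 in the wild type, so replicates 2 and 3 were low and replicate 1 was above the wild type.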
